A study of Triticum aestivum with 21 samples.

Results

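A group of 176 probe sets on the wheat GeneChip had their highest level in anthers before meiosis and had lost at least 1 log2 unit, which is 2-fold, by the end of the meiotic divisions. They were chosen from 61179 probe sets by their stage means alone. The mean before meiosis (PM) had to be above 6 on the log2 scale and the highest of 7 stages, and the mean at telophase I to telophase II (TT) had to lie at least 1 below it. Control probe sets were set aside, as were 17 probe sets with quantitative PCR primers, which stand for candidate meiotic genes and, in 2 cases, for reference genes of even level. Because PM and TT chose the group, every value of those stages is a description and carries no test.

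The samples were whole anthers of wild-type bread wheat (Triticum aestivum, cultivar Chinese Spring) grown in a glasshouse without treatment. After PM, stage LP covered leptotene to pachytene and stage DA covered diplotene to anaphase I. TT was followed by the tetrad stage (T), by immature pollen (IP) and finally by anthers at maturity (MAN). Anthers of a stage were pooled, and the pooled RNA was amplified in 2 rounds and hybridized to 3 arrays, giving 21 arrays in all. The arrays of a stage are therefore technical replicates of 1 RNA pool, and every SD, SE and p below measures the spread between arrays and not between plants.

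Levels are log2 of the deposited RMA intensity of a probe set, and a mean below 5 was taken as not expressed. A difference that ends below 5 is given as measured, although its size is not resolved there. Stage comparisons were made with limma over all 21 arrays, and a probe set was called at a Benjamini-Hochberg adjusted p under 0.05. The median level of all probe sets was 5.56 to 5.71 on every array. Levels of the hybridization controls, which are spiked in before the array is hybridized, stood at 8.69 on IP replicate 1 and at 11.08 to 11.30 on the MAN arrays, against 9.90 to 10.64 on the remaining 17. The poly-A controls, added before amplification, reached at least 7.0 on the DA and MAN arrays and on a single array (replicate 3) each of LP, T and IP. Elsewhere they lay at 6.34 to 6.77.

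In the anther, pollen mother cells leave mitosis, copy their DNA and enter meiosis. Homologous chromosomes pair and recombine between leptotene and pachytene and separate in anaphase I, and the second division gives tetrads of microspores that develop into pollen. The tapetum, a nursing layer around these cells, is active through meiosis and early pollen development and then breaks down. A transcript that is high before meiosis and low after it may belong to the last mitotic divisions, to entry into meiosis or to the young anther wall, and whole-anther RNA does not separate these.

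The meiocyte markers ASY1, DMC1, MSH4 and PHS1 were all expressed in PM, with a mean level of 10.28 to 10.43 across the 3 arrays. Their mean fell to 9.19 to 9.55 in TT and to 6.36 to 6.59 in MAN. In contrast, array means over the 4 tapetal raftin probe sets went from 10.89 to 11.59 in PM up to 12.07 to 12.25 in TT. In MAN they were at 8.08 to 8.51. Thus meiocyte markers moved in the same direction as the 176 probe sets and the tapetal markers moved in the opposite direction between PM and TT. Fewer cells of a type and less RNA per cell cannot be told apart in pooled anthers, and the part of cell composition in the values below was not tested. Green tissue markers (3 probe sets of PsbP and PRK) were at 8.65 to 9.21 in PM, 9.59 to 9.64 in TT and 5.68 to 5.92 in MAN. The photosynthesis list held 6 probe sets. Of those not used as markers, PsbO and an FBP probe set moved the same way. The other FBP probe set moved the opposite way, at 8.40 in PM, 7.525 in TT and 8.98 in MAN. The 17 seed storage probe sets stayed at 4.78 to 5.28 throughout, with 5 of them above 5 in PM. The 2 profilin probe sets, listed as pollen markers, stayed at 11.53 to 12.36. They were at 11.74 to 12.18 already in PM, before any pollen, so their level is not read as a measure of pollen.

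Across the 176 probe sets the median level was 9.36 in PM, 8.54 in LP, 8.03 in DA, 7.93 in TT, 7.76 in T, 7.44 in IP and 5.95 in MAN. The fall from PM to TT had a median of 1.19 and ranged from 1.004 to 4.15. It was at least 1.5 in 29 probe sets and at least 2 in 5. As the rule fixed, all LP and TT means lay below PM. Yet the PM arrays stood clear of the other arrays to different degrees: every PM array was above every LP array in 140 of the 176, above every DA array in 174 and above every TT array in 176. The rule, which set PM highest, favours such counts, and they were not made for other probe sets. The median SD of the 3 arrays was 0.182 in PM and 0.0661 in DA.

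The name of a steady fall held for a part of the group. In 129 of the 176 probe sets (73.3%) the mean fell at every step from PM to TT. It also fell to T in 90 of them (51.1%), on to IP in 73 (41.5%) and at all 6 steps to MAN in 64 (36.4%). The largest single fall was the one from IP to MAN in 102 probe sets, from PM to LP in 38, from T to IP in 16, from LP to DA in 13, from DA to TT in 4 and from TT to T in 3. By the median steps, the profile had an early fall at entry into meiosis, a flatter stretch through the divisions and a larger fall in MAN. The median steps were -0.69 to LP, -0.30 to DA, -0.18 to TT, -0.11 to T, -0.44 to IP and -1.10 to MAN. This outline was not particular to the group. Another 3745 probe sets were above 6 and highest in PM but fell by less than 1 to TT. Their median steps were smaller, at -0.20, -0.02, -0.09, -0.12, -0.15 and -0.65. In 62.1% of them IP to MAN was the largest single fall, against 58.0% of the 176.

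Most of the early fall came at entry into prophase. Between PM and TT the largest step was PM to LP in 123 probe sets, LP to DA in 39 and DA to TT in 14. The demand that PM be highest favours the step to LP, which was the largest in 69.9% of the 176 and 55.2% of the 3745. Most of the fall to TT was reached in LP in 57.4% of the 176 and in 60.2% of the 3745. The median share of the fall to TT that was already reached in LP was 55.7% (quartiles 35.8% and 77.7%), and 49 probe sets were at least 1 below PM in LP. The lowest mean of the 7 stages was in MAN in 150 probe sets, in IP in 17, in T in 6, in TT in 2 and in DA in 1. Means below 5 were found for 3 probe sets in LP, 6 in TT, 7 in IP and 40 in MAN.

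**Figure D1:**
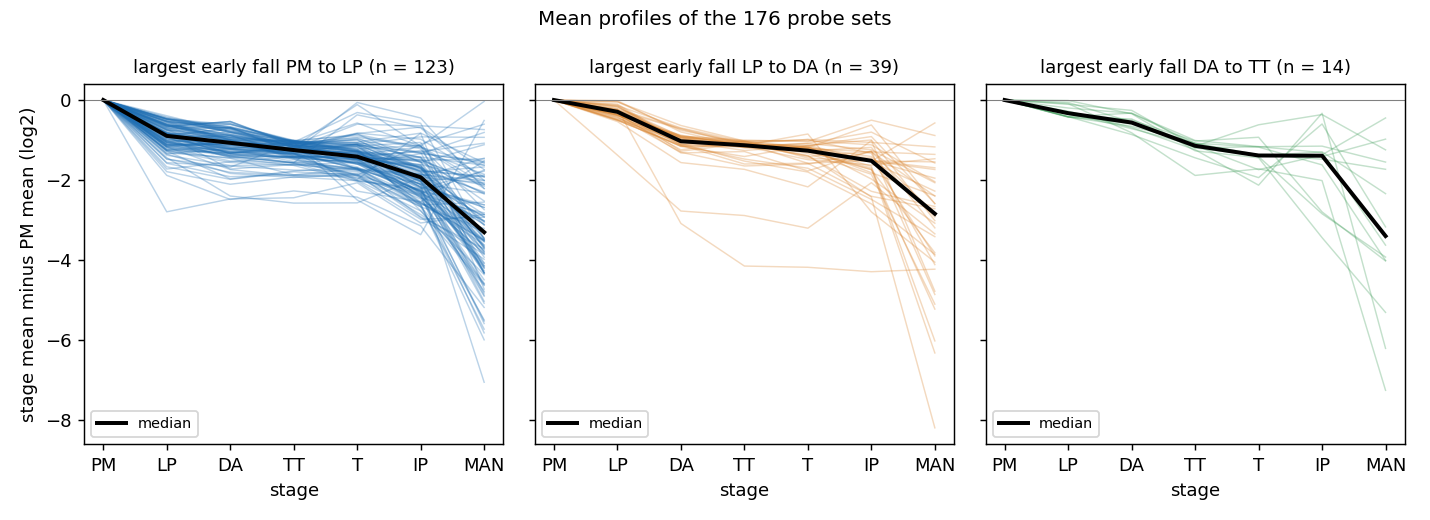
Stage means of the 176 probe sets as differences from their PM mean (log2, vertical axis) over the 7 stages (horizontal axis), 1 line per probe set and the median in black, in panels by where the largest fall between PM and TT lay. In 123 probe sets it was PM to LP, in 39 LP to DA and in 14 DA to TT, and in each panel the median is lowest in MAN.

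The rule leaves probe sets close on either side of its thresholds. Just inside the fall of 1 were Ta.6390.1.A1_at (1.004), Ta.6911.1.S1_at (1.008) and Ta.3628.1.S1_a_at (1.009). Just outside were Ta.9407.3.S1_a_at (0.9999), Ta.23715.1.S1_at (0.9991) and Ta.14824.1.S1_x_at (0.9991). At the PM level of 6, Ta.8833.2.S1_at (6.04), TaAffx.86700.1.S1_at (6.11) and TaAffx.114054.1.S1_at (6.13) were inside, and TaAffx.70046.1.S1_at (5.95), Ta.8828.3.S1_x_at (5.89) and TaAffx.11942.1.A1_at (5.85) were outside. Of the 17 probe sets set aside for their PCR primers, 3 met every threshold. The recombinase DMC1 (Ta.30833.1.S1_at) went from 11.81 in PM to 10.20 in TT, RAD54 (Ta.7706.1.S1_at), which acts with recombinases on chromatin, from 10.39 to 9.23, and WMC4 (Ta.30383.1.A1_at) from 8.18 to 6.996. A further probe set of the cluster of the set-aside RAD51C probe set, Ta.10540.2.A1_at, is 1 of the 176. It had a mean of 7.98 in PM, 6.79 in TT and 5.64 in MAN.

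When the rule was applied to 2 of the 3 arrays of each stage, the fall could be read in the arrays that were left out. Without replicate 1 the rule chose 222 probe sets, 157 of them among the 176, and their median fall was 1.18 in the arrays used and 1.05 in those left out. The corresponding values were 165 chosen, 1.19 and 1.24 without replicate 2, and 229 chosen, 1.19 and 0.987 without replicate 3. The fall was above 0 in the arrays left out in all 222, in 161 of 165 and in 224 of 229. It was at least 1 there in 122 of 222, in 112 of 165 and in 112 of 229. These arrays carry RNA of the same pools, so the values describe the repeatability between arrays and are no test of the fall.

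TaAffx.60258.2.S1_s_at, whose sequence matched nothing in databases when it was described, had the widest fall from PM to TT. Its levels were 11.49, 10.68 and 11.17 in PM, 10.87, 10.96 and 10.86 in LP, 8.26, 7.98 and 7.83 in DA, and 6.88, 7.22 and 6.77 in TT. The arrays of PM and LP overlapped, and all 3 DA arrays lay below them. It kept its level from then on, at 6.85 to 7.06 in T, 6.72 to 6.93 in IP and 6.74 to 7.08 in MAN. Most of the fall lay between LP and DA, where it dropped by 2.87 (limma, SE 0.157, adjusted p = 2.4e-11), and from DA to TT the mean dropped by a further 1.07. IP and MAN differed by 0.06 (limma, SE 0.157, adjusted p = 0.74), a difference that turned to -1.35 after scaling to the hybridization controls.

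A second probe set of the same cluster of sequences, TaAffx.60258.1.S1_at, fell later. It was at 13.70, 13.76 and 13.51 in PM, 13.54 to 13.60 in LP, 12.81 to 12.87 in DA, and 11.95, 11.55 and 11.82 in TT. Its IP arrays (11.16, 11.75 and 12.03) spanned the range of TT, and its MAN arrays were at 6.96, 6.53 and 5.70. The drop from IP to MAN was 5.25 (limma, SE 0.21, adjusted p = 1.5e-17). Both probe sets of the cluster belong to the group, and they differ in where most of the level was lost. The first lost it by DA and TT, while the second fell by 1.89 from PM to TT and further in the mature anther.

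Ta.10020.1.S1_at fell in both early steps. It was at 8.80, 9.03 and 8.59 in PM, 7.40, 7.21 and 7.67 in LP, 5.89, 6.10 and 6.10 in DA and 5.85, 6.09 and 5.80 in TT, with no overlap between PM, LP and DA. From LP to DA it dropped by 1.40 (limma, SE 0.151, adjusted p = 2.6e-06). Then it rose by 1.14 from T to IP (limma, SE 0.151, adjusted p = 2.5e-06), where the arrays read 6.40, 6.81 and 7.01, and fell to 5.42 to 5.50 in MAN. Ta.27933.1.S1_s_at had the same outline at a fall of 2.58, from 8.22 to 8.43 in PM and 6.69 to 6.95 in LP to 5.53 to 5.83 in TT. It rose by 0.64 from T to IP (limma, SE 0.117, adjusted p = 2.0e-04) and stayed at 6.10 to 6.43 in MAN.

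Ta.16669.1.S1_x_at was lost at entry into meiosis. Its PM arrays were at 6.84, 7.51 and 6.98 and its LP arrays at 4.12, 4.33 and 4.50, and it did not pass a mean of 5 again except in T, with a mean of 5.04. Another 3 probe sets singled out by the study were close to the limit of expression. TaAffx.86700.1.S1_at, with no similar database sequence, read 6.47, 5.78 and 6.09 in PM and 4.39, 4.42 and 4.78 in LP. TaAffx.11970.3.S1_s_at, likewise without a similar sequence, read 6.42, 5.96 and 6.08 in PM and 4.70, 4.68 and 5.30 in LP. Ta.400.2.A1_at, which resembles a putative rice subunit of condensin, the complex that compacts chromosomes, read 6.16, 6.33 and 6.02 in PM, 5.16, 5.12 and 5.34 in LP and 4.90 to 5.0 in DA. In these 3 no PM array overlapped an LP array.

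**Figure D2:**
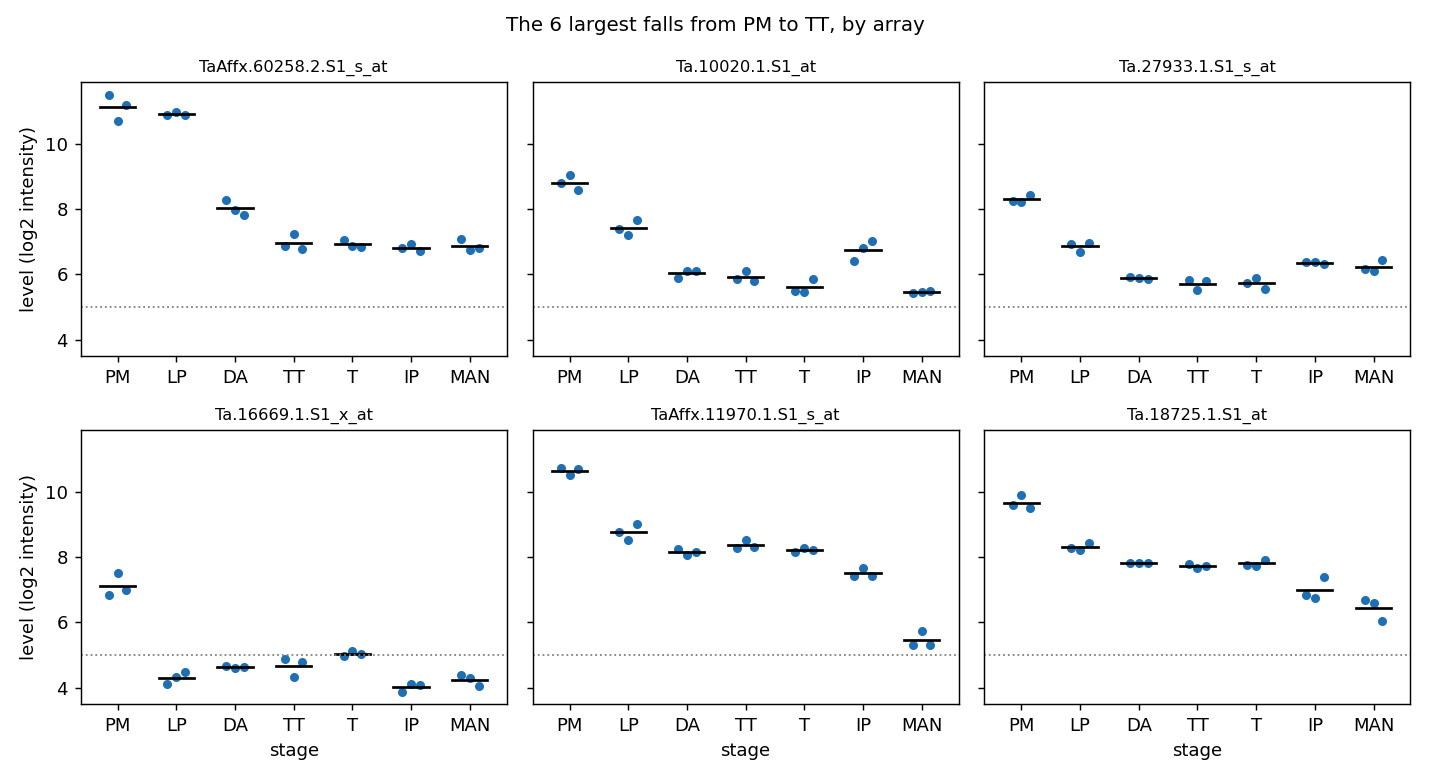
Levels on each array (points, log2 intensity, vertical axis) of the 6 probe sets with the widest fall from PM to TT over the 7 stages (horizontal axis), with the mean of 3 arrays as a bar and the level of 5 as a dotted line. TaAffx.60258.2.S1_s_at kept its PM level in LP and fell to a mean of 8.02 in DA, while Ta.16669.1.S1_x_at had already reached a mean of 4.32 in LP.

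TaAffx.11970.1.S1_s_at and Ta.18725.1.S1_at lost most of their early fall by LP. The first read 10.73, 10.50 and 10.70 in PM and 8.76, 8.52 and 9.0 in LP, after which it lay between 8.07 and 8.52 in DA, TT and T. It fell again to 7.42 to 7.65 in IP and 5.30 to 5.75 in MAN, a drop by 2.04 in the last step (limma, SE 0.13, adjusted p = 2.9e-13). Ta.18725.1.S1_at read 9.60, 9.88 and 9.51 in PM, 8.27, 8.22 and 8.44 in LP and 7.66 to 7.91 from DA to T. Its drop from IP to MAN was 0.54 (limma, SE 0.152, adjusted p = 3.4e-03).

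Another 4 probe sets that the study named did not meet the rule. TaAffx.9800.1.S1_at fell from 12.45 ± 0.207 (SD, n = 3) in PM to 7.01 ± 0.18 in TT and was at 13.12 ± 0.275 in IP. Ta.6922.1.S1_at was also higher in IP, at 10.27. Ta.6831.1.S1_at had a mean of 6.99 in PM and 7.85 in TT and so had no fall between them, and TaAffx.29005.1.S1_at had a PM level of 5.63. In all, 41 probe sets above 6 in PM lost at least 1 by TT but were highest in another stage.

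The steps from LP to DA and from DA to T lie within or beside the span that the rule used, so the counts there describe where the fall took place and are read for nothing else. From LP to DA limma called 48 of the 176 lower (27.3%) and 0 higher, against 2.91% lower and 1.64% higher of all probe sets tested. The methods' t-test also called 0 higher, and at an unadjusted p under 0.05 limma gave 1 higher. Ta.8828.1.S1_at, at 8.62, 8.65 and 9.29 in LP and 7.79 to 7.86 in DA, dropped by 1.03 (limma, SE 0.173, adjusted p = 5.8e-04). The 48 became 30 without LP replicate 3 and also 30 without DA replicate 3, and 13 with the methods' t-test.

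From DA to T, 70 of the 176 were lower (39.8%, against 7.72% of all probe sets) and 4 were higher (2.27%, against 4.87%). Ta.11633.2.A1_at went from 9.86 to 9.89 in DA to 8.41 to 8.46 in T, a drop by 1.44 (limma, SE 0.0942, adjusted p = 1.1e-11). Drops by 1.33 and 1.14 were found for Ta.5957.1.S1_at and Ta.6205.1.S1_at. The 4 probe sets that rose came back towards their PM level in tetrads, with T minus PM at -0.06 to -0.57. Ta.26190.1.S1_at read 6.17 to 6.49 in DA, 7.57 to 7.63 in T and 7.47 to 7.97 in PM. Its rise was 1.25 (limma, SE 0.157, adjusted p = 2.1e-06). TaAffx.79168.1.S1_at rose by 1.22 and TaAffx.64270.1.A1_at by 1.04, and TaAffx.9502.1.S1_at rose by 0.76. Scaling to the hybridization controls shifted the median over all 61179 probe sets in this step from -0.01 to 0.35 and the median over the 176 from -0.34 to 0.02. Of the 176, limma then called 4 higher and 0 lower, with 7 lower at an unadjusted p under 0.05. With the level of the poly-A controls, which was raised on the DA arrays, as a covariate, 23 of the 176 (13.1%) were lower and 4 higher.

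The steps after tetrads were not part of the rule, although the demand that PM be highest limits how far a probe set could rise. From T to IP 97 of the 176 fell (55.1%, against 9.28% of all probe sets) and 10 rose (5.68%, against 8.01%). Among the 3745 probe sets above 6 in PM that were also highest there but fell by less than 1 to TT, 23.3% were lower and 2.67% higher. The median step was -0.44 in the 176 and -0.15 in those 3745. With the methods' t-test 33 of the 176 were lower, and after scaling to the hybridization controls 6 were lower and 6 higher. IP replicate 1, the array with weak controls, enters this step, and the share called lower was 47.7% to 56.8% when each array of T and IP was left out in turn.

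TaAffx.52189.1.S1_at kept its level from PM (12.02 to 12.52) to LP (12.16 to 12.31), read 10.66, 10.82 and 10.91 in T and 8.72, 8.71 and 8.98 in IP. From T to IP it dropped by 1.997 (limma, SE 0.124, adjusted p = 1.9e-12), the largest fall of the group in this step. Ta.8081.1.S1_at dropped by 1.95 (SE 0.148) from 7.68 to 7.76 in T to 5.64 to 5.92 in IP, and TaAffx.109798.1.S1_s_at by 1.87 (SE 0.157). The arrays of T and IP did not overlap in any of these.

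A rise in immature pollen was seen for 10 probe sets, 5 of them by at least 1 (2.84%, against 2% of all probe sets). In Ta.11633.2.A1_at the rise was 1.80 (limma, SE 0.0942, adjusted p = 5.7e-14), from 8.41 to 8.46 in T to 10.20, 10.28 and 10.20 in IP, close to its PM arrays at 10.47 to 10.66. In MAN it was below 5, at 4.29 to 4.39. TaAffx.128828.2.S1_at read 7.35 to 7.59 in T, 8.50 to 9.09 in IP and 6.04 to 6.37 in MAN, and Ta.8223.1.A1_at 7.50 to 7.55 in T, 8.58 to 8.74 in IP and 4.72 to 4.84 in MAN. Each of these 3 therefore had a trough in tetrads between a high in PM and a second high in IP.

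The fall from T to IP was more frequent where the early fall came at LP. Of the 123 probe sets with their largest early step from PM to LP, 77 were lower in IP than in T and 3 were higher, and their median step was -0.59. Of the 39 with the largest step from LP to DA, 16 were lower and 4 higher (median -0.18), and of the 14 with the largest step from DA to TT, 4 were lower and 3 higher (median -0.07). The difference between these shares was not tested. From IP to MAN the 3 classes had like shares, with 95 of 123, 30 of 39 and 11 of 14 lower.

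The last step was the largest for most of the group. From IP to MAN 136 of the 176 fell (77.3%, against 25.6% of all probe sets) and 12 rose (6.82%, against 38.6%), and 99 of those that fell did so by at least 1 (56.2%, against 14.5% of all probe sets). Among the 3745 probe sets that were highest in PM but fell less to TT, 65.6% were lower and 7.82% higher. The median step was -1.10 against -0.65 in those 3745. MAN lay at least 4 below PM, which is 16 times, in 49 of the 176 (27.8%) and in 4.54% of the 3745. The rule favours this difference, as it set the fall from PM to TT at 1 or more only in the 176. When each array of the stages was left out in turn, the share called lower was 74.4% to 77.3%. Scaled to the hybridization controls, which were brighter on the MAN arrays, 171 were lower and 1 was higher, and the median over all 61179 went from 0.17 to -1.25.

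Ta.11633.2.A1_at dropped by 5.88 from IP to MAN (limma, SE 0.0942, adjusted p = 3.8e-26) but ended below 5, where the size is not resolved. Ta.20651.1.S1_at read 13.94, 13.73 and 13.60 in PM, 13.64 to 13.80 in LP, 12.65 to 12.72 in TT and 11.26 to 11.44 in IP. Its MAN arrays were at 5.02, 5.81 and 5.84, a drop by 5.77 (limma, SE 0.148, adjusted p = 9.7e-22) and by 8.20 below PM. It was 1 of 8 probe sets called lower in each of the 4 tested steps, besides Ta.10024.1.S1_s_at, Ta.14043.1.S1_at, Ta.20960.1.S1_at, Ta.3618.1.S1_at, Ta.9807.1.A1_at, TaAffx.121387.1.S1_at and TaAffx.37250.1.S1_at. Of the others, 39 were lower in 3 of these steps, 81 in 2, 40 in 1 and 8 in none. As the steps from LP to DA and from DA to T lie within or beside the span of the rule, these counts are a description. They were not made for other probe sets.

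The 12 probe sets that rose in mature anthers were an exception. Ta.12413.1.S1_at read 11.69, 11.55 and 11.69 in PM, 10.11 to 10.20 in LP, 10.39 to 10.73 in TT, 9.10 to 9.17 in T and 7.74, 8.34 and 8.73 in IP. In MAN it was back at 11.16, 11.10 and 11.12, a rise by 2.86 (limma, SE 0.151, adjusted p = 5.7e-15), and no MAN array overlapped those of LP to IP or of PM. TaAffx.9502.1.S1_at gained 1.12 (limma, SE 0.1, adjusted p = 2.8e-10), to 10.79 to 10.91 in MAN against 10.81 to 10.93 in PM, so that its first and last stage overlapped. Ta.5957.1.S1_at rose by 1.02 (SE 0.142), to 8.78 to 9.17, and stayed below its PM arrays at 10.32 to 10.63. For the last 2 the sign depended on the scaling, with -0.30 and -0.39 after scaling to the hybridization controls. Of the 176, limma then called 1 higher in this step, so most of the 12 rises depended on the scaling. In all, MAN was at least 1 above the lowest stage in 5 of the 176.

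Taking both late steps, 84 of the 176 were lower in each, 45 were lower only from IP to MAN, and 18 were called in neither. Another 7 rose in IP and fell in MAN, 4 fell in IP and rose in MAN, and 2 rose in both, namely Ta.6205.1.S1_at and Ta.13993.1.S1_x_at. These joint counts are a description and were not made for other probe sets. Ta.6205.1.S1_at read 7.60 to 7.78 in PM, 5.93 to 5.97 in T, 6.25 to 6.36 in IP and 7.16 to 7.34 in MAN, the profile of a trough centred on tetrads. These rises are given without scaling to the hybridization controls. Under that scaling 6 of the 176 were called higher from T to IP and 1 from IP to MAN.

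**Figure D3:**
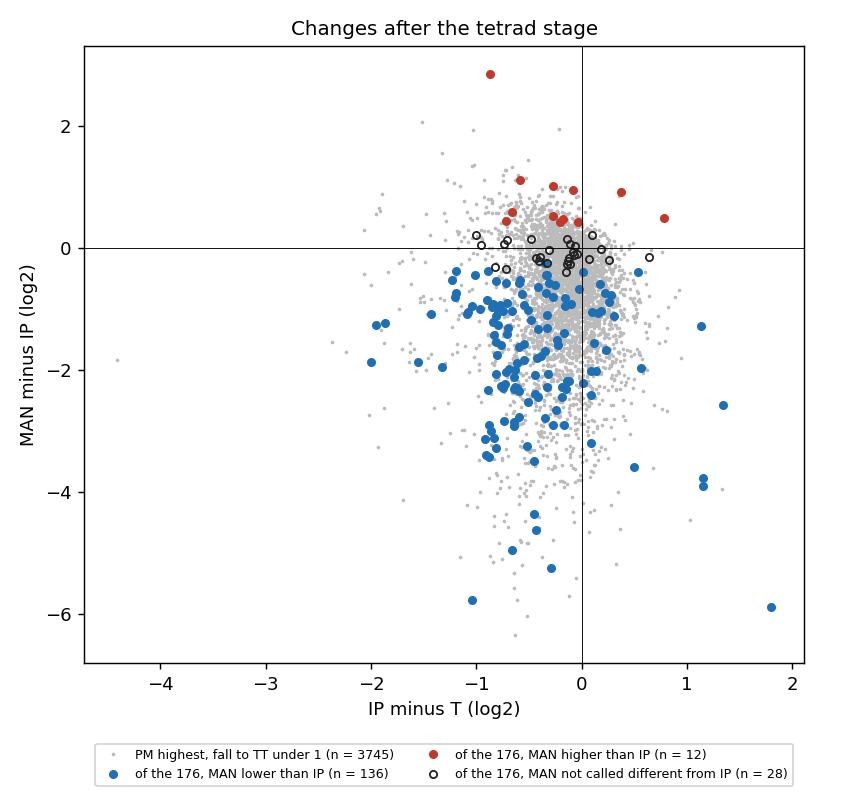
Change from T to IP (log2, horizontal axis) against change from IP to MAN (log2, vertical axis), with the 176 probe sets coloured by the limma call for the second and, in grey, the 3745 probe sets highest in PM that fell by less than 1 to TT. Of the 176, 84 were called lower in both steps and lie below and left of 0, 12 that rose in MAN lie above 0 and Ta.12413.1.S1_at is highest at 2.86.

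**Figure D4:**
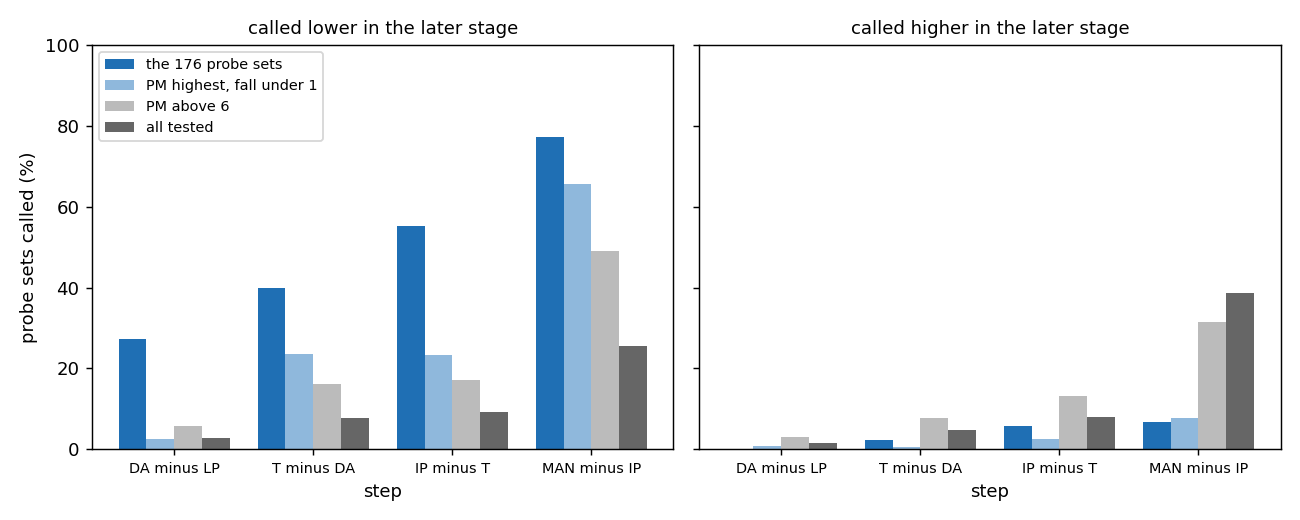
Share of probe sets called lower (left) or higher (right) in the later of 2 stages (percent, vertical axis) for the 4 tested steps (horizontal axis), for the 176 probe sets, the 3745 highest in PM with a smaller fall, the 26764 above 6 in PM and all 61179. The share of the 176 called lower goes from 27.3% for LP to DA to 77.3% for IP to MAN.

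The names of the probe sets show how far they stand for separate sequences. The first parts of a name give the cluster of sequences it was designed from, and the 176 came from 150 clusters. In 136 clusters there was 1 member, in 9 there were 2, and in 5 there were 3 or more, so 40 members share a cluster and are not independent measurements. Names starting with TaAffx made up 38.6% of the 176 and 30.5% of the 26764 probe sets above 6 in PM. The endings _s_at and _x_at, which mark probes that can match more than 1 transcript, were carried by 12 and 20 members, and _a_at, for transcripts of 1 gene, by 9.

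Cluster Ta.10329 held 10 members, the most of any. It has 39 probe sets on the array, of which 38 were above 5 in at least 1 stage, and 37 of these were highest in PM. The falls of the 38 from PM to TT ranged from 0.17 to 1.27 with a median of 0.78, so the threshold of 1 divides a continuous series. The 10 members had a median level of 12.63 in PM, 12.16 in LP, 11.90 in DA, 11.54 in TT and T, 10.93 in IP and 8.84 in MAN. From IP to MAN 10 of the 10 were called lower, against 25.6% of all probe sets. Ta.10329.17.S1_at, the weakest of them, went from 5.41 to 3.74, below the limit of expression. Of the others, which ended at 7.91 to 9.71, Ta.10329.38.S1_x_at dropped by 1.75 and Ta.10329.1.S1_x_at dropped by 2.44. From T to IP 7 of the 10 were called lower, against 9.28% of all probe sets. The fall from IP to MAN was not particular to the members. Over the 38 probe sets of the cluster, MAN minus IP ranged from -5.20 to -0.115.

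In cluster TaAffx.11970, which has 3 members, TaAffx.11970.2.S1_at had a mean of 12.43 ± 0.216 (SD, n = 3) in PM, 11.15 ± 0.21 in LP, 10.66 ± 0.188 in TT and 6.43 ± 0.327 in MAN, and TaAffx.11970.3.S1_at was below 5 in every stage. The 3 members of cluster Ta.8828 fell by 0.88 to 1.03 from LP to DA. From T to IP Ta.8828.1.S1_at rose by 1.16 (SE 0.173) and Ta.8828.1.S1_x_at by 0.50 (SE 0.15), and Ta.8828.3.S1_a_at differed by 0.31 (limma, SE 0.135, adjusted p = 0.13). In MAN the first pair lay below 5 and the third at 6.37 ± 0.196 (SD, n = 3). Clusters Ta.10982 and Ta.12761 had all 3 of their probe sets in the group, with falls to TT of 1.25 to 1.58 and 1.28 to 1.43. Cluster Ta.22962, with both of its probe sets in the group, fell by 4.37 and 4.62 from IP to MAN.

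**Figure D5:**
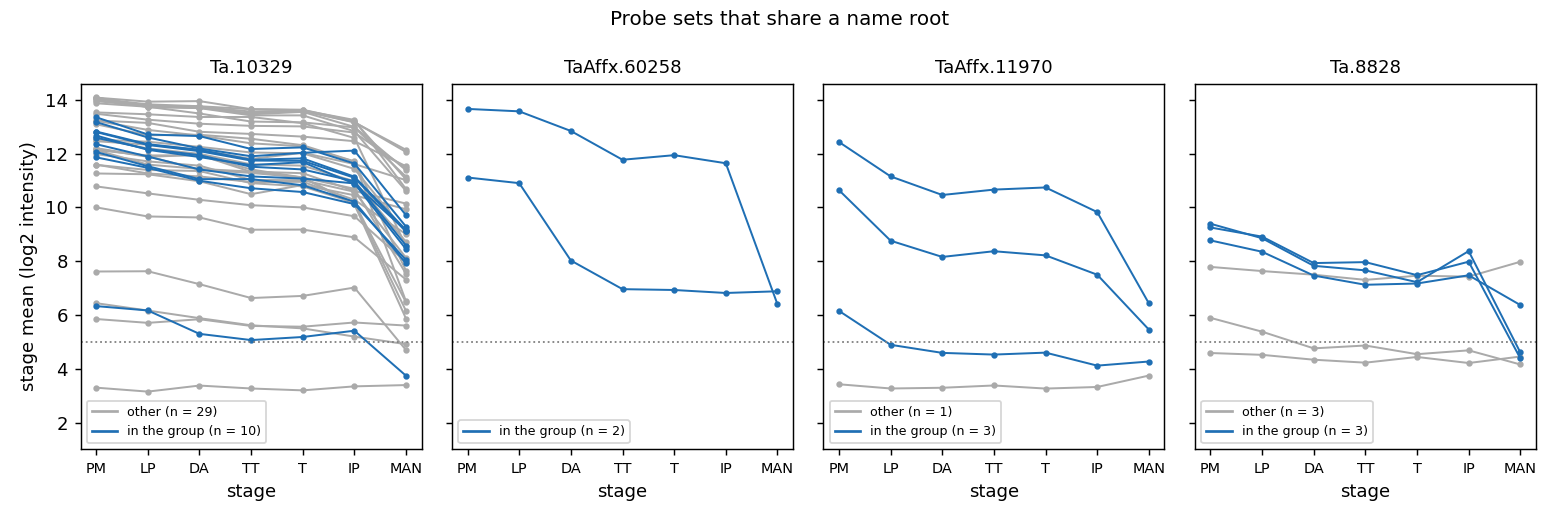
Stage means (log2 intensity, vertical axis) over the 7 stages (horizontal axis) of the probe sets of 4 clusters, members of the group in blue and others in grey, with the level of 5 dotted. Of 39 probe sets of Ta.10329, 10 are members, and most lines of this cluster fall together, most steeply from IP to MAN. TaAffx.60258.2.S1_s_at falls most steeply from LP to DA and TaAffx.60258.1.S1_at from IP to MAN.

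Gene names were known for almost none of the group. The platform annotation used here names a gene for 1273 probe sets, and 3 of the 176 are among them, each with a RefSeq locus identifier (assembly IWGSC CS RefSeq v2.1) and no other name. LOC543455 (Ta.2860.1.S1_at) read 11.08, 10.96 and 10.86 in PM, 10.65 to 10.92 in LP, 9.83 to 9.89 in DA and 5.57 to 5.83 in MAN. It dropped by 0.96 from LP to DA (limma, SE 0.108, adjusted p = 4.4e-06) and by 3.49 from IP to MAN (limma, SE 0.108, adjusted p = 5.1e-20). LOC542796 (Ta.14281.1.S1_at) went from 10.14 to 10.31 in PM to 9.06 to 9.34 in TT and 6.99 to 7.52 in MAN. LOC542874 (Ta.3678.1.S1_at) fell at every step, from 7.03 to 7.40 in PM over 5.68 to 6.18 in TT to 4.48 to 4.58 in MAN.

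Of the 83 probe sets on the gene lists, 0 were members. As the 176 are 0.288% of all probe sets, the 0 is read for nothing about the lists. Their falls from PM to TT are given as a description. The listed probe sets of H2A and H2B, core histones that package DNA, had falls below the threshold. The lists held no other histones and no DNA replication or cell cycle genes. All 9 probe sets of histone H2A were above 6 in PM and 7 of them were highest there, with a median fall to TT of 0.62 and a largest fall of 0.98 (Ta.27657.12.S1_at). For the 9 of histone H2B the median was 0.62, also with 7 highest in PM, and the largest fall was 0.92 (Ta.7378.1.S1_x_at). Cluster Ta.7378 holds 7 of these 9 and also a member of the group without a gene name in the annotation, Ta.7378.2.S1_x_at. That probe set read 11.94, 11.33 and 11.98 in PM, 10.81, 10.48 and 10.79 in TT, 11.34 to 11.59 in T and 8.19 to 8.42 in MAN. From IP to MAN it dropped by 2.895 (limma, SE 0.148, adjusted p = 2.8e-15). The 10 tubulin probe sets, of the spindle and cytoskeleton, had a median fall of 0.23 and a largest of 0.81. Raftins moved the other way, with a median PM minus TT of -0.92 over 4 probe sets, and over all 61179 probe sets the median was -0.001. Translation factors, ribosomal proteins and profilins had medians of -0.06, -0.15 and -0.08.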

How the data were processed

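Whole-anther RNA of 7 stages was measured with 3 arrays per stage. According to the methods, the arrays were technical replicates of pooled RNA amplified in 2 rounds. The authors made the deposited intensities with RMA, which corrects background, normalizes between arrays and summarises probes. The deposited intensity values are on a linear scale, although the analysis plan had assumed log2, and log2 was taken here. No version of RMA is given in the sources used here. The table has 61290 rows, of which 111 are controls. The number of arrays limits the precision.

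Stages were compared with limma 3.58.1 (R 4.3.3) in 1 model over 21 arrays (14 residual and 10.64 prior degrees of freedom), adjusted by Benjamini-Hochberg over 61179 probe sets. The fit was tested on simulated data. Other steps used Python 3.11.15, pandas 2.3.3, numpy 2.4.6 and matplotlib 3.10.9. The members, gene lists and tests were chosen with earlier results of these data known. Probe sets were named if the study names them, if annotated, if among the 6 largest falls to TT, near a threshold, or among the 3 largest calls per step and direction without overlap of arrays. Ta.13993.1.S1_x_at, TaAffx.11970.2.S1_at, Ta.10540.2.A1_at, Ta.7378.2.S1_x_at, Ta.10329.38.S1_x_at, the 8 called in each tested step and the clusters shown with 2 probe sets were named after their values were seen. Of 1273 annotated probe sets, 1272 matched a RefSeq gene and 200 had a name or synonym. Alternatives were the methods' t-test (equal variances, the 2 stages alone, Benjamini-Hochberg), limma on 2 stages, the replicate number as a block, a 2-fold minimum, centring on the median, scaling to the 27 hybridization controls, array weights, a filter on levels, omission of probe sets ending _s_at, _x_at or _a_at, other thresholds, and arrays left out. For the fits, each array of the compared stages (LP, DA, T, IP and MAN) was left out in turn, but no PM or TT array. For the rule, the arrays of a replicate number were left out at every stage together. The 42 poly-A controls as a covariate and fits without IP replicate 1 were added after the data were seen. No probe or transcript sequence was used here.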

Additional observations from a re-analysis of the deposited data

How the results depend on the processing

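The number of probe sets meeting the rule was 766 with a fall of at least 1.5-fold, 5 with 4-fold and 116 after scaling to the hybridization controls, and 165 to 229 when 1 array per stage or IP replicate 1 was left out. Means fell at every step from PM to TT in 116 to 165 probe sets, and from PM to T in 85 to 105, when arrays were left out, and in 54 and 21 under that scaling. The scaling also changed the shares called lower to 1.14% (LP to DA), 0% (DA to T, with 7 lower at an unadjusted p) and 3.41% (T to IP), and those called higher to 3.41% (T to IP) and 0.568% (IP to MAN). With a 2-fold minimum the shares lower were 2.27%, 3.98% and 9.09% for the first 3 steps, against 0.196%, 0.283% and 1.39% of all probe sets. Those higher were 2.84% (T to IP, against 2%) and 1.7% (IP to MAN, against 7.97%). The methods' t-test gave 7.39% lower from LP to DA, and 18.8% lower and 2.27% higher from T to IP. From LP to DA array weights gave 52.3% lower and 0.568% higher, and the poly-A covariate gave 0.568% higher. The share higher from DA to T was 4.55% with array weights and with limma on 2 stages, and the share lower was 13.1% with the poly-A covariate. When arrays were left out, the share lower from LP to DA was 17% to 30.1% (17% without LP replicate 3 or DA replicate 3), and from DA to T 26.7% to 43.2%. Of 156 repeats of 11 summary values, 130 stayed within 1.5 times. Under the alternatives other than the 2-fold minimum, shares over all probe sets were not counted. The cause of the changes was not tested.

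Of 1015 repeats of 67 differences of named probe sets, 944 kept their direction and call, 47 lost the call, 19 gained it and 5 changed sign. The sign changes were from IP to MAN under the scaling to the hybridization controls, with -1.35 for TaAffx.60258.2.S1_s_at, -1.20 for Ta.16669.1.S1_x_at, -1.27 for TaAffx.11970.3.S1_s_at, -0.30 for TaAffx.9502.1.S1_at and -0.39 for Ta.5957.1.S1_at. In that step the median of all probe sets moved to 0.06 with median centring.

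Arrays with the same replicate number did not deviate together (correlations of -0.21 to 0.12). With the replicate block the shares lower were 25.6%, 39.2%, 52.8% and 77.3% in the 4 steps, and no count moved by over 1.5 times. Dixon's test was not applied, as each stage has 3 arrays. Levels below 5 limit the sizes of falls in 40 probe sets in MAN.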
